A study of Mus musculus with 16 samples.

Results

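The genes described here were 39 chemokines and chemokine receptors, measured as bulk RNA of hamstring muscle in a mouse model of histidyl-tRNA synthetase (HRS)-induced myositis. They were picked by gene symbol from a list of 24 ligands, 10 signalling receptors and 5 atypical receptors, out of 26382 genes in the table. The CXCR3 ligands and the chemokines of lymphoid structures were not on that list. Of the 39 genes, 33 had a mean of at least 0.5 normalized counts over the 16 libraries and entered the test, and the other 6 (Ccl17, Cxcl3, Ccr3, Ccr4, Ccr6 and Ccr8) are given by their values alone.

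HRS is the autoantigen targeted in anti-Jo-1 myositis, and injecting the recombinant protein into muscle brings immune cells into it. All 9 mice were female C57BL/6 animals aged 8 to 10 weeks at injection, and muscle was taken 14 days later. In 5 mice (m862 to m866) the sample titles place HRS at 3 to 5 mg/mL in the left hamstring and PBS in the right one, giving 5 HRS legs and 5 contralateral PBS legs. The shared protocol text instead describes injection on both sides, 50 µL each, so whether a contralateral leg was exposed to HRS can be read from the titles only. A further 2 mice (m867 and m868) received PBS alone and gave both legs each, so these 4 PBS-only libraries hold 2 animals, and p-values that count them as 4 samples are too small. The last 2 mice (m860 and m861) received HRS fused to maltose-binding protein (HRS-MBP), with 1 library each and no leg named. Their titles give 2 to 3 mg/mL, their treatment label gives 3 to 5 mg/mL, and no animal received MBP alone. Each comparison is therefore between whole legs of few animals, and samples with different numbers are separate mice.

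Chemokines are small secreted proteins that guide leukocytes along concentration gradients and switch on their integrins. They act through G protein-coupled receptors that signal through Gi, each receptor being shared by several ligands and carried by particular leukocytes. Atypical receptors bind the same ligands without Gi signalling, and take them up, carry them across vessel walls or hold them in place. In injured or inflamed muscle, monocytes, macrophages, endothelial cells, fibroblasts and the muscle fibers themselves can all make chemokines.

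The depth implied by the table was 37300000 to 73900000 reads in HRS legs, 24700000 to 72800000 in contralateral legs, 8600000 to 40700000 in PBS-only legs and 37300000 to 39600000 in HRS-MBP samples (rounded). The PBS-only legs were thus the least deeply read, and genes near 0 are least certain there. Skeletal muscle markers were abundant in every library, with sums of 6 genes between 36425 and 170142. Monocyte and macrophage markers (10 genes) summed to 2303 to 5256 in 4 HRS legs, 1067 in the HRS leg of m866, 4157 to 4456 with HRS-MBP and 112 to 304 in the 9 PBS libraries. In m866 the HRS leg stood apart in other ways too: its mitochondrial share was 11.1%, where the other 4 HRS legs held 3.41% to 6.29% and PBS legs 9.69% to 13.1%, and its skeletal muscle marker sum was 147457 against 36425 to 87004 in the other 4. In bulk RNA, more cells of a type and more RNA per cell cannot be told apart. The libraries were run on several sequencing platforms, and the labels do not say which library went on which, so platform and treatment cannot be told apart.

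Many of the genes sit side by side in the genome (coordinates of GRCm38, the build whose GENCODE M21 models match the table for all 39). Ccl2, Ccl7, Ccl11, Ccl12 and Ccl8 lay within chr11:82035571-82116799, and Ccl5, Ccl9, Ccl6, Ccl3 and Ccl4 within chr11:83525778-83664683. The Cxcl5, Pf4, Cxcl3, Cxcl1 and Cxcl2 genes lay within chr5:90759360-90905938. The receptor genes Cxcr6, Ccr1, Ccr3 and Ccr2 lay within chr9:123806475-124113557.

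Promoter sequence was on hand for 31 of the 39 genes, as 300 bases from 250 before to 50 after the start site (RefSeq, GRCm38.p6). These are shown for 3 neighbouring ligands of Cxcr2 on chromosome 5, since all 3 hold a kappaB-like stretch, the kind of site that NF-kappaB binds. Capitals mark GGG, any 2 bases and TTTCC, or its reverse complement of GGAAA, any 2 bases and CCC, and in Cxcl3 also the TATA box TATAAA, which overlaps neither. All 3 are on the plus strand, at chr5:90890995-90891294 (Cxcl1), chr5:90903649-90903948 (Cxcl2) and chr5:90785851-90786150 (Cxcl3).
Cxcl1: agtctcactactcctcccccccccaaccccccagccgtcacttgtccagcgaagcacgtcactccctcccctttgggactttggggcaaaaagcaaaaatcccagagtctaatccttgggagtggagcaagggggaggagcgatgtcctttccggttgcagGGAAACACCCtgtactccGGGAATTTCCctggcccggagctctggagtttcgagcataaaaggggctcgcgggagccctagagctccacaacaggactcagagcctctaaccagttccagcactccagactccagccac
Cxcl2: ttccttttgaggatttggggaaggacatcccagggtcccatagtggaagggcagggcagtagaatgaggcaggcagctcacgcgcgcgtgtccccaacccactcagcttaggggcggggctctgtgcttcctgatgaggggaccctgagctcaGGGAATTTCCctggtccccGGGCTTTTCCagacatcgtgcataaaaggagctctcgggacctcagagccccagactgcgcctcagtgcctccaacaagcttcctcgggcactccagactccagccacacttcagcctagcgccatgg
Cxcl3: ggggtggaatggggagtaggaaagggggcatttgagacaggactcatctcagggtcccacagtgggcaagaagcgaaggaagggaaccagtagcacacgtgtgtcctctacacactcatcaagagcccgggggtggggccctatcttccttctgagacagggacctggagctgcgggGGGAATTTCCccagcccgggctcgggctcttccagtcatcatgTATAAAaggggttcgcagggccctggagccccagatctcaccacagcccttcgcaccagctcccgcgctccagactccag

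The identical run GGGAATTTCC began at -71 in Cxcl1, -97 in Cxcl2 and -73 in Cxcl3, counting the start site as 0. A second kappaB-like stretch began at -89 in Cxcl1 on the other strand and at -78 in Cxcl2. Of all 32851 mouse promoters of this length, 1.63% held the motif on either strand, and 5 of the 31 members did, the others being Ccl9 and Ccr3. The ISRE-like motif (GAAA, any 2 bases and GAAA, on either strand), which interferon-regulated genes often carry, was in 3.44% of all promoters and in 1 member, Cxcl14. A GAS-like motif, TTCNNNGAA, the kind of site that STAT factors bind and which reads alike on both strands, was in 8.30% of all promoters and in 3 members (Ccl17, Ccr6 and Cxcl14). A match says only that these letters are present, and the data hold no measure of factor binding.

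The comparison of each HRS leg with the contralateral PBS leg asks how the chemokine genes differ at the injected site. Of the 33 tested genes, 23 were called higher and 1 (Ccl24) lower in HRS legs, and 9 were not called. Called here means an adjusted p under 0.05 in limma and a log2 fold change beyond 1 on the log2(normalized count + 0.5) scale, which understates the change of genes near 0. Over all 16414 tested genes, 16.9% were called higher and 6.27% lower. Of the 33, 10 averaged under 0.5 in the 9 PBS libraries (Ccl3, Ccl4, Ccl12, Ccl22, Cxcl1, Cxcl2, Cxcl5, Xcl1, Cxcr2 and Cxcr6), so they entered the test only through their levels after immunization. All 10 were called higher, and counts and medians over the 33 are partly fixed by that. Of the 23 genes that reached 0.5 in the PBS libraries, 13 were called higher and 1 lower. The median log2 fold change was 2.10 over the 33 genes and 0.08 over all tested genes. That all-gene median, and the balance of calls, depend on the scaling. With every library scaled to the same total, the all-gene median was 0.46, with 4259 genes higher and 322 lower in place of 2781 and 1029. With quantile normalization it was -0.16, with 2093 higher and 1632 lower, and the members then stood at 23 higher and 1 lower, as before. All 5 HRS legs lay above all 9 PBS libraries for 21 of the 33 genes (16% of all tested genes) and below them for 1, Ccl24 (1.22% of all tested genes).

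The called genes were split by role. Of 24 ligands 22 were tested and 17 called higher, 8 of them among the 10 genes above. Of 10 signalling receptors 6 were tested and called higher, Cxcr2 and Cxcr6 being among those 10 genes, while Ccr3, Ccr4, Ccr6 and Ccr8 were too low to be tested. None of the 5 atypical receptors was called, with log2 fold changes of -0.43 to 0.84. In 22 of the 23 genes called higher, the HRS leg exceeded the contralateral leg in 5 of 5 mice. Pf4 was the exception, at 9.53 in the HRS leg and 10.61 in the PBS leg of m866.

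**Figure D1:**
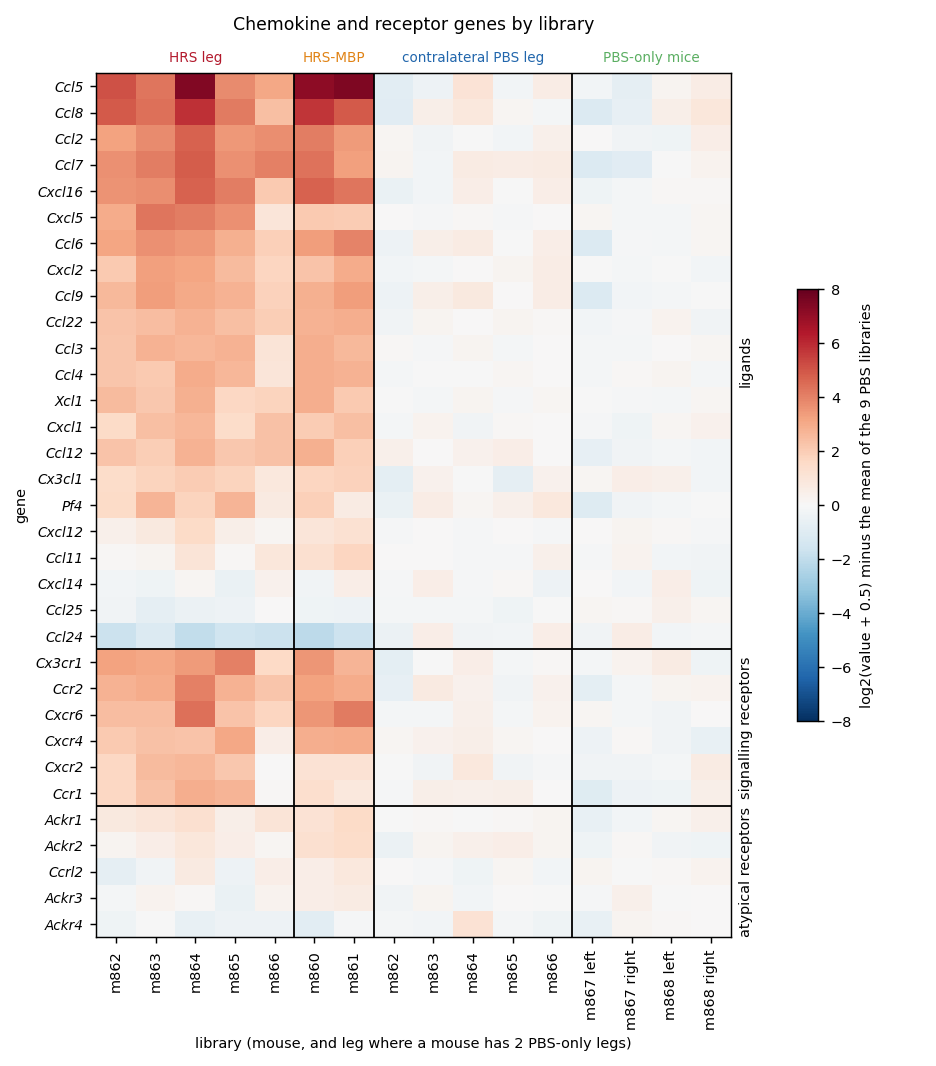
Heat map of the 33 tested genes (rows, grouped as ligands, signalling receptors and atypical receptors) in 16 libraries (columns, grouped by treatment). Color gives log2(normalized count + 0.5) minus the mean of the 9 PBS libraries. Most ligands and the 6 signalling receptors drawn are red in HRS legs and HRS-MBP samples, and 18 of the 23 called higher are palest among HRS legs in m866. Ccl24 is blue, Ccl25 pale blue, and Cxcl14 and the atypical receptors are near white in HRS legs.

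Levels between genes can be set side by side only per length, so each normalized count was divided by the kilobases of exon of its gene. In contralateral legs the ligands with the highest median per kb were Cxcl14 (22.7), Ccl6 (13.0), Cxcl12 (11.6), Ccl11 (10.5) and Pf4 (10.4). Cxcl14 and Cxcl12 are chemokines made constantly by stromal cells. In HRS legs the order was headed by Ccl8 (168), Ccl6 (88.0), Ccl5 (33.4), Pf4 (28.7) and Ccl7 (26.7). Cxcl14 came seventh there, at 20.8. Neighbours in these orders overlapped in their ranges: Ccl8 spanned 39.6 to 457 per kb over the 5 HRS legs and Ccl6 36.5 to 124. With HRS-MBP the leading ligands were Ccl8 (319), Ccl5 (274) and Ccl6 (126). Among receptors, the atypical Ackr3 ranked first per kb in contralateral legs (7.23), followed by Ccrl2 (3.84) and Ackr1 (3.23). In HRS legs Ccr2 (8.15), Cxcr4 (8.10) and Ackr3 (7.77) shared the top, with ranges that overlapped.

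**Figure D2:**
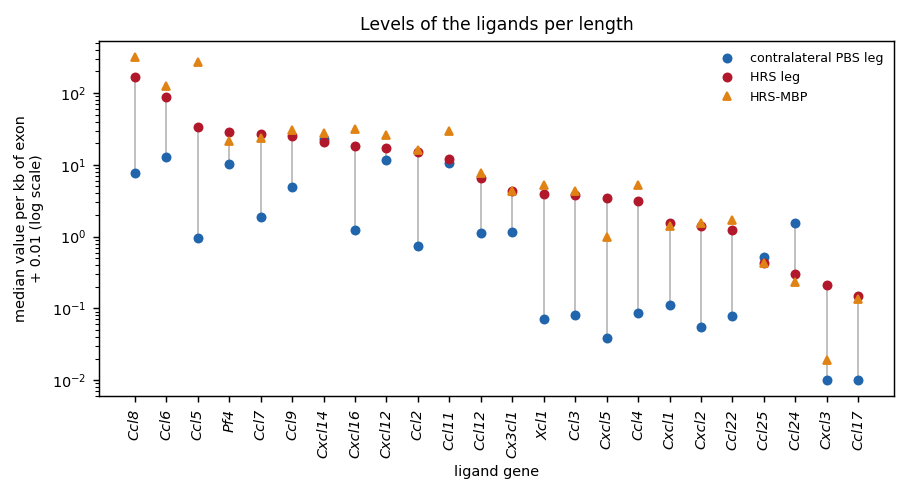
Median normalized count per kb of exon, plus 0.01, on a log scale, for the 24 ligands ordered by their level in HRS legs. Circles are HRS legs (red) and contralateral PBS legs (blue), joined by grey lines, and triangles are HRS-MBP samples. Ccl8, Ccl6 and Ccl5 lead in both immunizations, and Cxcl14, which leads in PBS legs at 22.7, stands at 20.8 in HRS legs.

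Ligands of Ccr2 recruit blood monocytes, and all 4 genes listed as such were called higher, as was Ccr2 (16.9% of all tested genes were). Ccl12 averaged under 0.5 in the PBS libraries, so it entered the test only through its level after immunization. The other 3 reached 0.5 there. Ccl8 was listed for both Ccr2 and Ccr8, and which of them it acts on was not tested. It stood at 119, 85.6, 234, 70.5 and 20.3 normalized counts in the HRS legs of m862 to m866. It stood at 1.60, 5.03, 6.74, 3.97 and 3.02 in the contralateral legs of the same mice, and at 1.42 to 7.04 in the PBS-only legs. Every HRS leg was above every PBS leg, with m864 the highest and m866 the lowest. The log2 fold change of Ccl8 was 4.27 (SE 0.54, limma adjusted p 2.48e-05). An exact two-sided permutation test of 5 against 5 legs gave p 0.00794, the smallest such a test can give, while sign flips over the 5 mice cannot pass the 0.05 threshold and are not given.

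Ccl2, the main monocyte attractant, stood at 12.4, 18.4, 35.9, 15.0 and 17.4 in the HRS legs, against 0.587 to 1.46 in the 9 PBS libraries (log2 fold change 3.76, SE 0.26, limma adjusted p 9.50e-07). Ccl7, a second Ccr2 ligand that Ccr1 also binds, stood at 16.6, 21.8, 37.3, 16.2 and 21.4, against 0.121 to 1.59 (3.69, SE 0.31, limma adjusted p 1.74e-06). For both, m866 lay among the other HRS legs, unlike Ccl8. Ccl12, a mouse relative of Ccl2, was lower in level, at 2.85 to 5.22 in HRS legs and 0.0404 to 0.706 in PBS legs, with a log2 fold change of 2.03 (SE 0.20). The receptor Ccr2, which inflammatory monocytes carry, stood at 55.1, 63.3, 129, 54.0 and 37.3 in HRS legs and at 4.58, 12.8, 9.56, 6.20 and 9.58 in contralateral legs. Its groups did not overlap either, and its log2 fold change was 2.87 (SE 0.31, limma adjusted p 6.55e-06). The monocyte and macrophage markers given above moved with this group (9 of 10 called higher, Cd163 lower), and their part in it was not tested.

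The ligands of Ccr1, a receptor of monocytes, neutrophils and some T cells, were also all called higher (5 of 5). The share called higher over all tested genes was 16.9%. Ccl3 averaged under 0.5 in the PBS libraries, so it entered the test only through its level after immunization. The other 4 reached 0.5 there, and all 4 were called higher. Ccl5, made in quantity by activated T and NK cells, varied most between mice. It stood at 56.0, 32.1, 280.0, 22.4 and 13.4 in the HRS legs of m862 to m866, and at 0.417, 0.725, 3.00, 0.912 and 1.99 in their contralateral legs. In m864 the HRS leg was 10.3 times the median of the other 4, and even the lowest HRS leg was above the highest PBS leg. Its log2 fold change of 4.70 (SE 0.62, limma adjusted p 3.31e-05) was 4.03 without the HRS leg of m864. T cell markers (7 genes) summed to 131 in the HRS leg of m864, the highest, to 20.04 in that of m866, the lowest, and to at most 3.69 in PBS legs, and NK markers (5 genes) to 30.6 in m864 against at most 2.67 in PBS legs. Their part in the level of Ccl5 was not tested.

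Ccl6 and Ccl9 are mouse chemokines that myeloid cells produce also at rest, and they were the Ccr1 ligands with the highest PBS levels. Ccl6 rose from 7.68 to 26.8 over the PBS libraries to 158, 223, 194, 124 and 65.5 in HRS legs, a log2 fold change of 2.77 (SE 0.32). For Ccl9 the PBS range was 4.57 to 18.0 and the HRS legs held 66.6, 112, 90.2, 75.7 and 39.6 (2.44, SE 0.29). Ccl3, an inflammatory chemokine of macrophages, was at or under 0.139 in every PBS library and at 2.10, 3.33, 2.95, 3.33 and 0.623 in HRS legs (2.28, SE 0.28). In these 3 genes the HRS leg of m866 was the lowest HRS leg.

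Ccr1 itself stood at 3.62, 6.28, 9.54, 8.15 and 0.904 in HRS legs and at 0.705, 1.32, 1.25, 1.29 and 0.862 in contralateral legs. The HRS leg of m866 fell inside the PBS range, so the groups overlapped. The gene was called higher all the same, with a log2 fold change of 1.70 (SE 0.43, limma adjusted p 0.00371) and an exact permutation p of 0.0317.

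Of the ligands with no signalling receptor on the list, 3 of 5 were called higher (16.9% of all tested genes were). Ccl4 and Xcl1 averaged under 0.5 in the PBS libraries, so they entered the test only through their levels after immunization. Of those that reached 0.5 there (Pf4, Ccl25 and Cxcl14), Pf4 alone was called. Ccl4, a relative of Ccl3, stood at 2.07, 1.89, 3.89, 3.03 and 0.561 in HRS legs and at 0 to 0.130 in the PBS libraries (2.19, SE 0.28, limma adjusted p 2.74e-05). Xcl1, a product of activated T and NK cells that attracts dendritic cells through Xcr1, stood at 2.65, 2.02, 3.47, 1.26 and 1.43 against 0 to 0.139 (2.19, SE 0.22), and was not called with a pseudocount of 2 (0.99). Pf4, a platelet and macrophage chemokine, stood at 16.7, 39.1, 20.7, 39.8 and 9.53 against 2.43 to 10.61 (1.58, SE 0.38, limma adjusted p 0.00266). Pf4 therefore overlapped between the groups through m866, while Ccl4 and Xcl1 did not. Ccl25, known for calling T cells to the gut, and Cxcl14 were not called. Ccl25 stood at 2.43 to 4.30 in HRS legs and 3.35 to 5.80 in PBS libraries, with a log2 difference of -0.23 (95% CI -0.51 to 0.05) that became 0.14 with libraries scaled to the same total. Cxcl14 stood at 30.4 to 55.4 and 33.4 to 63.8, with a log2 difference of -0.12 (95% CI -0.59 to 0.34) that became 0.29 with that scaling.

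**Figure D3:**
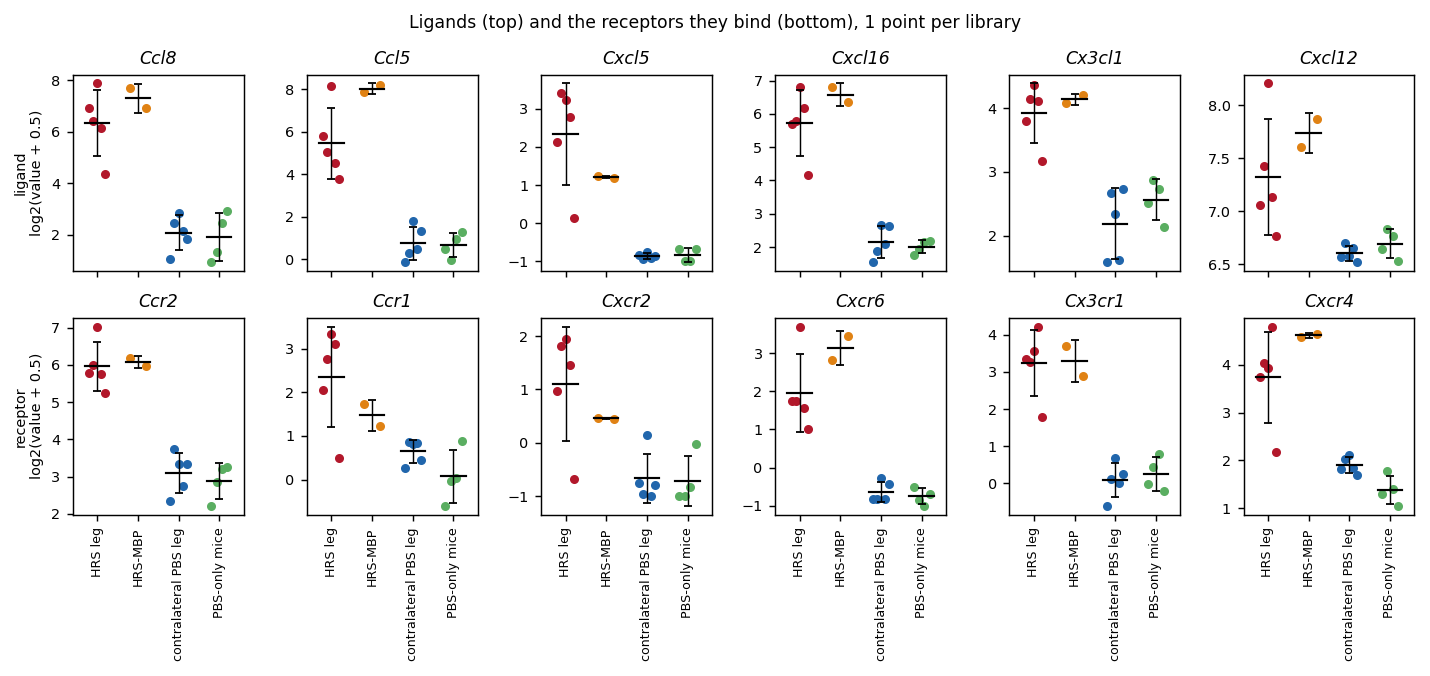
Ligands (top row) and a receptor listed for each (bottom row), as log2(normalized count + 0.5) in each library (points), with the mean (line) and SD (bars) of each group. Ligand and receptor are both called higher in HRS legs in every pair but Cxcl12 and Cxcr4, where only the receptor is, and the HRS leg of m866 is the lowest red point in all 12 panels. The vertical scale differs between panels.

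Cxcr2 guides neutrophils, and its ligands carry the ELR motif. Cxcl5 stood at 3.88, 10.1, 8.93, 6.34 and 0.592 in HRS legs and at 0.0641, 0.0165, 0.0924, 0.0294 and 0.0539 in contralateral legs. Its log2 fold change was 3.20 (SE 0.45, limma adjusted p 5.25e-05), and all HRS legs were above all PBS libraries, m866 least. Cxcl1, which stromal and endothelial cells release early in inflammation, stood at 1.44, 3.11, 3.75, 1.35 and 2.90 against 0.0284 to 0.364 in the 9 PBS libraries (2.10, SE 0.24). Cxcl2, a product of macrophages and neutrophils, stood at 1.999, 5.10, 4.80, 2.87 and 1.40 against 0 to 0.404 (2.45, SE 0.28). For Cxcl1 the HRS leg of m866 was again among the others, where Cxcl2 and Cxcl5 were lowest in it. Cxcl3, under the filter, stood at 0.176, 2.63, 0.697, 0.694 and 0.0623 in HRS legs and was listed at 0 in 8 of the 9 PBS libraries, the other holding 0.0588. With no filter on low values it was called higher as well (log2 fold change 1.12, limma adjusted p 0.0103).

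Cxcr2 followed its ligands in 4 legs. It stood at 1.46, 3.03, 3.36, 2.26 and 0.1246 in HRS legs and at 0.0961, 0.0165, 0.600, 0 and 0.0808 in contralateral legs. The HRS leg of m866 lay below the contralateral leg of m864, so the groups overlapped (log2 fold change 1.77, SE 0.41, limma adjusted p 0.00227, exact permutation p 0.0159). With a pseudocount of 2 the log2 fold change was 0.84 and the gene was not called. Neutrophil markers (9 genes) moved with it: they summed to 75.3 to 200.2 in 4 HRS legs, 31.4 in that of m866 and 3.56 to 15.8 in PBS libraries. Of these 9 genes 6 entered the test only through their levels after immunization, so their calls are not counted here. Ly6g, the defining surface marker, was at 0 in all PBS libraries and in the HRS leg of m866. Most of the sum in that leg was Mmp9 (20.9) and Csf3r (9.06), both above their PBS ranges, as were Retnlg (0.436) and Mmp8 (0.249). S100a8 (0.343), S100a9 (0.374), Ngp (0.0935) and Camp (0) lay within their PBS ranges there. The part of neutrophils was not tested.

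Cxcl16 and Cxcr6 form a one-to-one pair: the ligand is displayed on the surface of macrophages and dendritic cells, and the receptor is typical of memory T cells held in tissue. Cxcl16 stood at 51.2, 54.6, 112, 71.3 and 17.5 in HRS legs and at 2.42, 3.18, 5.77, 3.74 and 5.63 in contralateral legs (log2 fold change 3.57, SE 0.36, limma adjusted p 3.98e-06). Cxcr6 stood at 2.88, 2.87, 12.4, 2.47 and 1.53 in HRS legs and at 0.0641, 0.0659, 0.323, 0.0588 and 0.242 in contralateral legs (2.60, SE 0.37, limma adjusted p 5.72e-05). Both were above every PBS library in every HRS leg. The HRS leg of m864 held 4.64 times the median Cxcr6 of the other 4 HRS legs, and 2.12 times their median Cxcl16. The Cxcr6 span overlaps Fyco1 on the other strand, and the library kit keeps strand, but how strand was counted is not given in the sources used here.

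Cx3cl1, made by endothelial cells as a membrane-bound adhesion ligand, and its receptor Cx3cr1, found on monocytes and macrophages, both rose. Cx3cl1 stood at 13.4, 17.3, 20.2, 16.9 and 8.51 in HRS legs and at 2.50, 5.85, 4.57, 2.56 and 6.11 in contralateral legs (1.73, SE 0.26, limma adjusted p 0.000102). Cx3cr1 stood at 9.70, 9.12, 11.4, 18.0 and 2.93 in HRS legs and at 0.160 to 1.11 in contralateral legs (3.14, SE 0.37, limma adjusted p 1.33e-05). Neither gene overlapped between HRS legs and PBS libraries. Endothelial markers (6 genes) summed to 298 to 360 in HRS legs and 280 to 347 in PBS libraries, and none of the 6 was called. The Cx3cr1 span of the annotation overlaps other genes on both strands, so some of its reads may be hard to assign.

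Cxcl12, the constitutive stromal ligand of Cxcr4 and of the atypical receptor Ackr3, missed the fold threshold. It stood at 133, 172, 295, 140.0 and 108 in HRS legs and at 94.1, 104, 95.01, 99.9 and 91.3 in contralateral legs. Each HRS leg was above each contralateral leg, while the highest PBS-only leg, at 114, lay above m866. The log2 fold change was 0.72 (95% CI 0.30 to 1.13, limma adjusted p 0.00558, exact permutation p 0.00794). It was called with libraries scaled to the same total (1.13) and with limma-voom weights (1.15). Cxcr4, carried by most leukocytes, was called higher: it stood at 12.9, 15.9, 14.6, 27.1 and 4.02 in HRS legs and at 3.04, 3.58, 3.83, 3.06 and 2.72 in contralateral legs (1.84, SE 0.33, limma adjusted p 0.000467). In m866 the HRS leg was close to the PBS range, just above its highest value of 3.83. Ackr3, which scavenges Cxcl12, stood at 17.4 to 30.0 in HRS legs and 20.1 to 33.2 in PBS libraries, with a log2 difference of 0.04 (95% CI -0.28 to 0.37) whose sign turned in 6 alternatives. Fibroblast markers (6 genes) summed to 10741 to 18514 in 4 HRS legs, 1973 in that of m866 and 890 to 2172 in PBS libraries.

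The eotaxins Ccl11 and Ccl24 are ligands of the eosinophil receptor Ccr3. Ccl24 was the single gene called lower: it stood at 0.382, 0.874, 0.232, 0.445 and 0.374 in HRS legs, and at 1.60, 3.59, 1.85, 1.9998 and 3.72 in contralateral legs. The PBS-only legs held 1.82 to 3.75, so no HRS leg reached the PBS range, m866 included. The log2 fold change was -1.64 (SE 0.25, limma adjusted p 0.000102, exact permutation p 0.00794), lower in 5 of 5 mice. With a pseudocount of 2 it was -0.86 and short of the fold threshold. Among the monocyte and macrophage markers Cd163 was the 1 of 10 called lower (log2 fold change -1.57, SE 0.26), while Mrc1, another marker of resident macrophages, was called higher (1.53, SE 0.30). All 4 adipocyte markers were called lower against contralateral legs, where their sum reached 1124 in m866, but 1 of 4 (Retn) against PBS-only mice. The part of these cells was not tested. Ccl11 stood at 12.2, 13.2, 23.5, 12.1 and 21.03 in HRS legs and at 11.4, 11.6, 10.5, 10.7 and 15.2 in contralateral legs, with a log2 difference of 0.40 (95% CI -0.01 to 0.81). It was higher in 5 of 5 mice, by the widest margin in m864, yet the groups overlapped. Ccr3 was under the filter, at 0.0312 to 0.748 in HRS legs and 0 to 0.431 in PBS libraries. Eosinophil markers were sparse too: 3 of 6 were in the table, none passed the filter, and their sum was 0.374 to 1.27 in HRS legs and 0.0404 to 0.539 in PBS libraries.

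Ccl22, a dendritic cell and macrophage product that draws Ccr4-bearing T cells, was even across mice. It stood at 2.53, 2.86, 3.79, 2.81 and 1.90 in HRS legs and at 0 to 0.261 in PBS libraries (2.33, SE 0.18, limma adjusted p 1.16e-06). The other Ccr4 ligand, Ccl17, was under the filter, at 0.147, 0.0540, 0.0179, 0.0712 and 0.280 in HRS legs and 0 to 0.139 in PBS libraries, and Ccr4 was at 0.0623 to 0.179 and 0 to 0.142. Ccr8, a receptor of Ccl8 on T cells, was at 0.0294 to 0.268 in HRS legs and listed at 0 in 7 of 9 PBS libraries. Ccr6, whose ligand Ccl20 draws Th17 and B cells, was at 0.0312 to 0.143 in HRS legs and listed at 0 in all 9 PBS libraries. In all 5 mice Ccr6 and Ccr8 read higher on the HRS side, on 22 and 35 implied reads over the HRS legs against 0 and 2 over the contralateral legs. Some HRS legs held single reads, as Ccr6 did in m866, so no test is given for these genes.

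Among atypical receptors, Ackr1, which venules and red blood cells carry, came nearest to a call. It stood at 7.80, 8.77, 11.1, 6.11 and 9.24 in HRS legs and at 4.19, 4.54, 4.11, 4.68 and 5.08 in contralateral legs, all HRS legs being above all PBS libraries. Its log2 fold change of 0.84 (95% CI 0.45 to 1.22, limma adjusted p 0.00152) was under the threshold, and passed it with libraries scaled to the same total (1.22). Ackr2, a lymphatic scavenger of inflammatory CC chemokines, stood at 1.40 to 2.66 in HRS legs and 0.737 to 1.91 in PBS libraries (0.29, 95% CI -0.12 to 0.70, and -0.11 under quantile normalization). Ackr4, which takes up Ccl19, Ccl21 and Ccl25, stood at 0.366 to 0.766 and 0.354 to 2.43 (-0.43, 95% CI -1.01 to 0.15). Ccrl2, which binds chemerin, stood at 6.19, 8.59, 17.5, 7.78 and 15.7 in HRS legs and 8.04 to 13.0 in PBS libraries (0.07, 95% CI -0.42 to 0.56), with a sign that turned in 5 alternatives. In Ccrl2 the legs of m864 and m866 were above, and the other 3 below or within, the PBS range.

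Against the PBS-only mice the same HRS legs gave 23 genes called higher (18.9% of all tested genes) and 1 lower (5.87%), with a median log2 fold change of 2.28 (0.15 over all tested genes). Both comparisons share the HRS legs, so the second is no independent repeat. Ccl5 (4.79), Ccl7 (4.51) and Ccl8 (4.44) led on the log2 scale, and Ccl24 was again lower (-1.59, SE 0.26, limma adjusted p 0.000198). Ackr1, at 0.97 (SE 0.19), was just short of the threshold and was called in 7 alternatives, among them without both legs of m868 (1.30).

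Contralateral PBS legs were set against PBS-only mice to ask whether chemokine genes differ in the PBS leg of mice that received HRS in the other leg. None of the 33 genes was called by limma, higher (0% of all tested genes) or lower (0.00609%), and 4 had an unadjusted p under 0.05, as did 902 of all 16414 genes. These 4 were Ccl7 (0.82, 95% CI 0.13 to 1.52), Ccl9 (0.66, 95% CI 0.01 to 1.31), Ccl12 (0.58, 95% CI 0.12 to 1.04) and Ccl25 (-0.35, 95% CI -0.65 to -0.05), with limma adjusted p values of 0.835 to 0.908. For Ccl12 every contralateral leg (0.350 to 0.706) was above every PBS-only leg (0.0404 to 0.261), a separation seen in 2.30% of all tested genes. For Ccl25 every contralateral leg (3.35 to 4.23) was below every PBS-only leg (4.72 to 5.80), as in 0.274% of all tested genes. The intervals of Ccl5 (-1.31 to 1.48) and Ccl8 (-1.06 to 1.39) were wide.

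Immunization with HRS-MBP gave 25 of 33 genes higher than in PBS-only mice (20.7% of all tested genes) and 1 lower, Ccl24 (10.2%). The balance over all genes turned with the scaling: 3400 were higher and 1671 lower here, 2511 and 2800 with quantile normalization, while 5121 were higher with every library scaled to the same total. Among the 33 genes quantile normalization gave 23 higher and 2 lower. This comparison rests on 2 mice against 2, and shares the PBS-only legs with the previous ones. Ccl5 stood at 233 and 294 in m860 and m861, a log2 fold change of 7.36 (SE 0.85, limma adjusted p 9.31e-06). Ccl8 stood at 206 and 119 (5.39, SE 0.75), Cxcl16 at 112 and 80.6 (4.57, SE 0.50) and Ccl6 at 177 and 275 (3.97, SE 0.43). Among receptors Cxcr6 stood at 6.54 and 10.5 (3.90, SE 0.50), Cxcr4 at 23.4 and 24.6 (3.23, SE 0.46) and Ccr2 at 73.0 and 61.8 (3.20, SE 0.43). The genes called here but not for HRS legs were Ccl11 (1.56, SE 0.26), Ackr2 (1.60, SE 0.26), Ackr1 (1.43, SE 0.25) and Cxcl12 (1.05, SE 0.27). The Cxcl12 call was lost with median-of-ratios scaling (0.97), without m861 (0.91) and without the right leg of m868 (0.99). Ackr1 lost its call under quantile normalization (0.92) and Ackr2 narrowly with a pseudocount of 2, and leaving out both legs of m868 also ended the Cxcl12 call. Ccr1 (1.40, SE 0.59, limma adjusted p 0.0534) and Cxcr2 (1.17, SE 0.56, limma adjusted p 0.0881) were not called, and both were when the HRS leg of m866 was left out of the fit that all groups share (limma adjusted p 0.00463 and 0.0110). Cxcl5, at 1.85 and 1.78 (2.05, SE 0.61, limma adjusted p 0.0103), lost its call without m861 (limma adjusted p 0.0555), without m860 (limma adjusted p 0.0617) and with a pseudocount of 2 (0.89, limma adjusted p 0.0725). Pf4 (1.67, SE 0.52, limma adjusted p 0.0129) lost it without m860 (1.07, limma adjusted p 0.196) and under quantile normalization (limma adjusted p 0.0559).

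**Figure D4:**
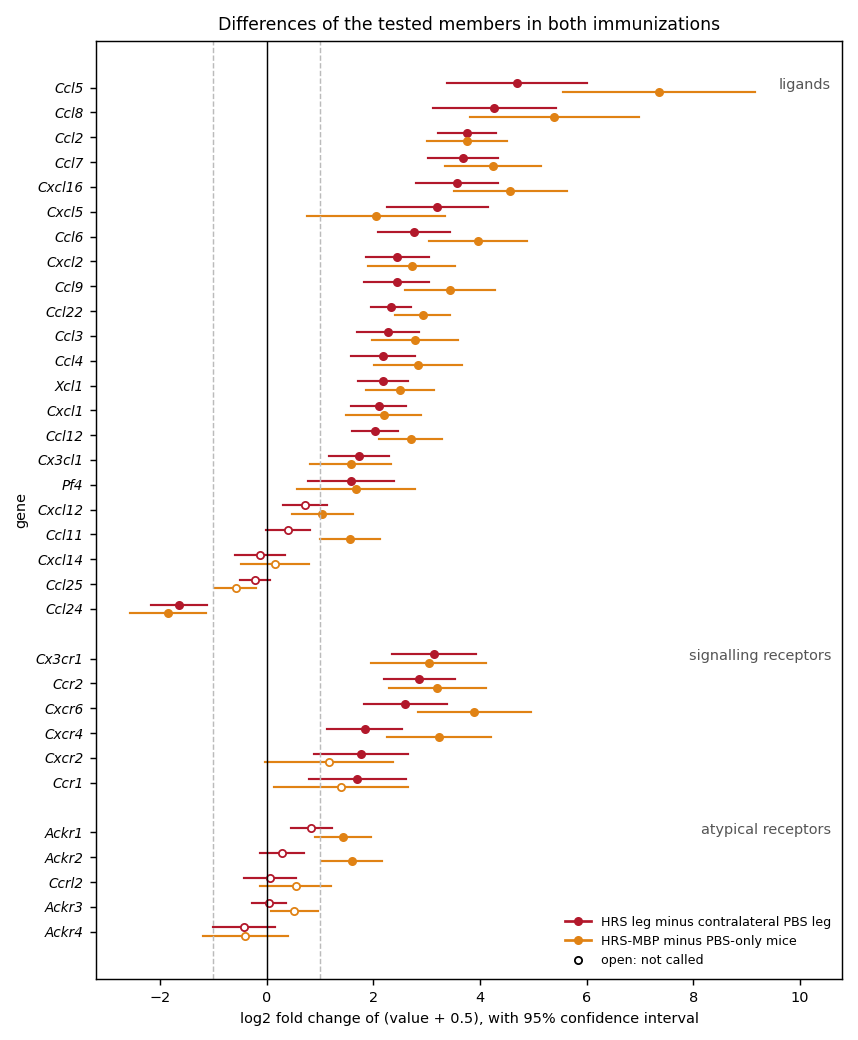
Log2 fold change of each tested gene with its 95% confidence interval, for HRS legs minus contralateral PBS legs (red) and HRS-MBP samples minus PBS-only mice (orange), with filled points for called genes and dashed lines at the threshold of 1. Ccl5 has the largest value in both (4.70 and 7.36), Ccl24 the lowest (-1.64 and -1.85), and Cxcl12, Ccl11, Ackr1 and Ackr2 are filled in orange only.

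The difference between the immunogens was itself tested. No gene was called between HRS-MBP samples and HRS legs by limma, higher (0.396% of all tested genes) or lower (0.0670%), while 6 had an unadjusted p under 0.05, as did 2371 of all 16414 genes. The largest differences among these were Ccl5 (2.58, 95% CI 0.83 to 4.32, adjusted p 0.185), Cxcr6 (1.18, 95% CI 0.15 to 2.21, adjusted p 0.289) and Ccl11 (1.004, 95% CI 0.46 to 1.55, adjusted p 0.103). Ackr2, Ackr3 and Ccrl2 were the other 3, at 0.91, 0.60 and 0.71. Both HRS-MBP samples were above all 5 HRS legs in 4 of the 33 tested genes (7.10% of all tested genes), Ccl11 (27.4 and 37.5 against at most 23.5), Ccl22, Ackr2 and Ackr3, and below all of them in none of the 33 (8.40% of all tested genes). Cxcl3, under the filter, was below every HRS leg in both, at 0.0204 and 0.0445. Single HRS legs decided what was called. Without m864, whose levels of Ccl5 and Cxcr6 are near those of HRS-MBP, 4 genes were called higher: Ccl5 (3.24, adjusted p 0.00416), Cxcr6 (1.61, adjusted p 0.00416), Ccl11 (1.15, adjusted p 0.00965) and Ackr2 (1.01, adjusted p 0.0271). Calls rose over all tested genes too, to 521 higher and 57 lower from 65 and 11, so the gain is not particular to chemokine genes. Without m866, Ccl11 was called higher (1.11, adjusted p 0.0371) and Cxcl5 lower (-1.68, adjusted p 0.00783). Over all tested genes 99 were then called higher and 80 lower. B and plasma cell markers (5 genes) summed to 90.8 and 643 with HRS-MBP, 18.6 to 48.4 in HRS legs and at most 5.77 in PBS legs, and T cell markers to 105 and 145. Their part in these differences was not tested.

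In the HRS leg of m866 most of these genes were low, as were most other genes called higher. Of the 23 genes called higher, 18 were lower in m866 than in every other HRS leg, 5 lay among the other 4, and none was above them. Over all 2781 genes called higher, 90.1% were lower in m866 than in every other HRS leg and 8.74% lay among the others, so a low level there is not particular to chemokine genes. Its level relative to the median of the other 4 ran from 0.0471 (Cxcr2) to 1.27 (Cxcl1), with a median of 0.366 over the 23. The 5 genes that lay among the others were Ccl2, Ccl7, Ccl12, Cxcl1 and Xcl1. At the low end, beside Cxcr2, were Cxcl5 (0.0776), Ccr1 (0.1252), Ccl8 (0.198) and Ccl3 (0.199). With both legs of m866 left out, 23 genes were called higher and 1 lower as before. Over all tested genes the calls then rose to 3499 higher and 1748 lower, from 2781 and 1029. In the opposite direction, m864 held the highest HRS-leg level for 15 of the 23 genes (70.6% of all 2781 genes called higher), m863 for 4 (Ccl6, Ccl9, Cxcl2 and Cxcl5) and m865 for 4 (Ccl3, Pf4, Cxcr4 and Cx3cr1). Macrophage, neutrophil, T cell, dendritic cell and fibroblast marker sums were likewise lowest among HRS legs in m866. The NK sum (10.3, the others 9.87 to 30.6) and the B and plasma cell sum (47.0, the others 18.6 to 48.4) were not, and the part of these cells was not tested.

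**Figure D5:**
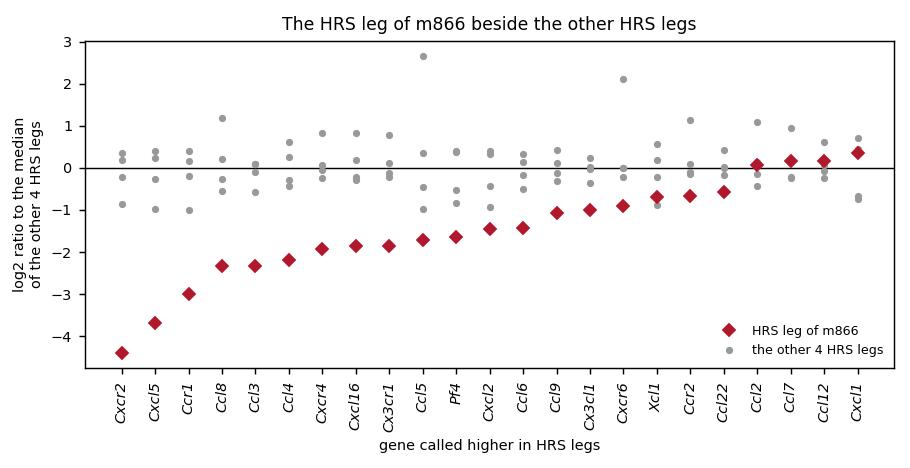
Level of each of the 23 genes called higher in the HRS leg of m866 (red diamonds) and in each of the other 4 HRS legs (grey points), as the log2 ratio to the median of those 4. Genes are ordered by the ratio in m866. Cxcr2, Cxcl5 and Ccr1 are furthest below the line, and Ccl2, Ccl7, Ccl12 and Cxcl1 are the genes above it.

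The rest of the chemokine system was described by lists. Of 18 chemokine genes that are not members, 14 were tested and 11 were called higher in HRS legs against contralateral legs, the median log2 fold change being 1.70. Of the 14, 8 reached 0.5 in the PBS libraries, and 6 of these were called higher. Among them were Cxcl9 (5.31, SE 0.57) and Cxcl10 (5.10, SE 0.47), the interferon-induced ligands of Cxcr3. Of 27 genes for signalling downstream of chemokine receptors, all tested, 16 were called higher and 1 lower (median 1.81). The higher ones included Rac2, the leukocyte GTPase of cell movement (3.67, SE 0.34), and Dock2, its activator (3.11, SE 0.32), while the broadly expressed Gi subunit Gnai1 was lower (-1.06, SE 0.44, limma adjusted p 0.0448). In HRS legs against PBS-only mice no gene of this list was called lower, the lowest log2 fold change being -0.75. With HRS-MBP against PBS-only mice Gnai1 was called lower. Of 8 RGS proteins, which switch Gi signalling off, 5 were called higher (median 1.84), among them Rgs1 (2.84, SE 0.39) and Rgs14 (2.66, SE 0.30). Rgs1 averaged under 0.5 in the PBS libraries, so it entered the test only through its level after immunization. Of the 7 that reached 0.5 there, 4 were called higher. The share called higher over all tested genes was 16.9%. The leukocyte markers given above moved with these lists, and their part was not tested.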

How the data were processed

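Bulk RNA of hamstring muscle was measured in 16 libraries, made by poly(A) selection with a strand-keeping kit. The deposited table holds, per gene, a normalized signal (the authors' normalized counts); the submitters' processing notes name STAR 2.7.8a, GRCm39 and limma, and the scaling method, the counter and the treatment of reads shared by similar genes are not given in the sources used here. Gene coordinates in the table match GENCODE M21 (GRCm38) for 39 of 39 members, so the build named and the coordinates differ. Between 73.6% and 75.8% of low values were whole multiples (within 0.02) of what 1 read is worth, too few for a count test, so implied reads are approximate. Table totals ran from 726797 to 1252360 per library, and no per-sample column was left unused.

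Values were taken as log2(normalized count + 0.5), genes with a mean of at least 0.5 (16414) were kept, and all 4 groups were fitted together in limma 3.58.1 (R 4.3.3) with a mean trend and no block. P-values were adjusted by Benjamini-Hochberg over all tested genes, and a gene was called at adjusted p < 0.05 and a log2 fold change beyond 1. Single values were also tested by exact permutation of 5 against 5 legs, in Python 3.11.15. The fit was checked on simulated data. Legs with the same number come from the same mouse. Deviations of its 2 legs correlated at 0.119, 0.163, 0.0972, -0.0256 and -0.366 in m862 to m866. Values per kb used the union of exons in GENCODE M21.

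Every member was accounted for. Values in each leg were given for the member with the largest called change in each role list, its receptor or ligand, and every member called lower, and other members were named with their values. The members and lists were chosen with earlier results of these data known. Alternatives were other pseudocounts, filters, scalings and limma settings, mouse as a block, a mean per PBS-only mouse, and each library left out; leaving out both legs of m866 or m868 was added after seeing the data. Promoters were read from RefSeq tables (GRCm38.p6).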

Additional observations from a re-analysis of the deposited data

Results flagged for a closer look

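In 6 of 99 sets of values (33 genes in 3 groups of 4 or 5 libraries), 1 library lay far from the others of its group by Dixon's ratio on the log2 scale, where chance flags about 1 in 20. In HRS legs this was Cxcr6 in m864, at 12.4 where the other 4 legs held 1.53 to 2.88. In contralateral legs it was Ackr4 in m864 (2.43, the others 0.544 to 0.690), Cxcr2 in m864 (0.600, the others 0 to 0.0961) and Ccl11 in m866 (15.2, the others 10.5 to 11.6). In PBS-only legs it was Ccl24 in the right leg of m867 (3.75, the others 1.82 to 2.06) and Ccl25 in the left leg of m868 (5.80, the others 4.72 to 4.73).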

How the results depend on the processing

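Over all alternatives that were run, 15 to 25 genes were called higher and 0 or 1 lower in HRS legs against contralateral legs, 15 to 26 and 0 to 2 against PBS-only mice, and 17 to 27 and 0 to 2 for HRS-MBP against PBS-only mice. Contralateral legs against PBS-only mice gave 0 throughout. A filter at a mean of 2 left fewer genes to test, and gave 15 higher and 0 lower in both HRS-leg comparisons and 0 lower with HRS-MBP. A pseudocount of 2 left 0 lower in these 3 comparisons, as Ccl24 then changed by less than the fold threshold. Quantile normalization gave 2 lower, Ccl24 and Ccl25, in HRS legs against PBS-only mice and in HRS-MBP against PBS-only mice; the cause was not tested. Between HRS-MBP and HRS legs, leaving out 1 library gave 0 to 4 higher and 0 to 1 lower, and leaving out both legs of m866 gave 1 and 1.

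With mouse as a fixed replicate block, 23 genes were higher and 1 lower in HRS legs against contralateral legs, and the random replicate block (consensus correlation -0.154) changed no call among the 33 genes in any comparison.

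Signs turned only for genes near 0 that were not called in HRS legs against contralateral legs. Ackr2 was -0.11 and Ackr3 -0.14 and Ccrl2 -0.29 under quantile normalization. Ackr3 was -0.03 with median-of-ratios scaling, between -0.03 and 0.17 without single libraries (-0.03 without the HRS leg of m863 or m866, -0.02 without the contralateral leg of m862) and -0.02 without both legs of m866. Ccrl2 was -0.0032 with median-of-ratios scaling, between -0.11 and 0.24 without single libraries (-0.11 without the HRS leg of m864, -0.08 without that of m866) and -0.11 without both legs of m866. Scaling to the same total and voom weights turned Ccl25 (0.14 and 0.20) and Cxcl14 (0.29 and 0.29), and without single libraries Cxcl14 ran from -0.24 to 0.01, the latter without the contralateral leg of m863. The depth of the PBS-only legs limits what can be said of Ccl17, Ccr3, Ccr4, Ccr6 and Ccr8.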
